A study of Arabidopsis thaliana with 6 samples.

Results

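The GASA genes of Arabidopsis thaliana encode gibberellin-regulated peptides, and 9 of them were followed in leaves grown at low or normal CO2. They were picked by locus out of the 26402 genes of the deposited table, as GASA1, GASA2, GASA3, GASA4, GASA5, GASA6, GASA9, GASA10 and GASA14. The choice was made with their values in this table known, so their levels are given as a description and without a test. The plants were wild type, ecotype Columbia (Col-0), and whole leaves were taken at 4 weeks. They had grown in soil under 16 h of light and 8 h of dark at 21 °C and 70% relative humidity, with CO2 at 100 ppm for the low CO2 group and 380 ppm for the normal CO2 group. Each group had 3 samples, and the CO2 level is the only treatment named. The series asks how low CO2 may be linked to the evolution of C4 photosynthesis in a plant that itself uses C3 photosynthesis.

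GASA proteins are small, enter the secretory pathway and end in a domain rich in conserved cysteines, as do the GAST1 protein of tomato and the snakins of potato. Many of their genes respond to gibberellin, the hormone that drives stem and leaf growth by removing the DELLA repressors. Different members act in cell elongation, germination, flowering and stress tolerance, and several have been tied to the redox state of the cell.

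The table held RPKM, a level that divides reads by the length of the gene model and by the depth, in 1 column for each CO2 level, and single replicates had no column. Whether a column pools the 3 samples of its group or holds 1 library is not stated, so each level and ratio may stand for either. Without replicate values no difference had a replicate check, and no p-value could be given. The reads behind the values were recovered from the RPKM. The depth inferred for this was 25429325 reads for the normal CO2 column and 21887516 for the low CO2 column. Recovered reads made up 95.5% and 95.1% of these depths. Ratios are low over normal CO2, and the 95% interval in parentheses after a ratio is an exact Clopper-Pearson interval that covers counting error only. In whole leaves, fewer cells of a type and less RNA per cell cannot be told apart. The leaf label was checked against marker genes. Rubisco small subunit gene RBCS1A and the other 4 mesophyll genes on the list were at 264 RPKM or more in both columns, and summed to 26746 RPKM under normal CO2 and 53493 under low CO2.

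The family split into 5 genes with at least 110 reads in each column and 4 genes with almost none. GASA1, GASA4, GASA6, GASA9 and GASA14 were all at least 14.3 RPKM under normal CO2 and all were higher under low CO2. GASA2, GASA3, GASA5 and GASA10 had at most 8 reads in either column. The gap between both sets was wide, since the highest of the 4 low genes stood at 1.18 RPKM and the lowest of the 5 abundant ones at 14.3 RPKM.

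**Figure D1:**
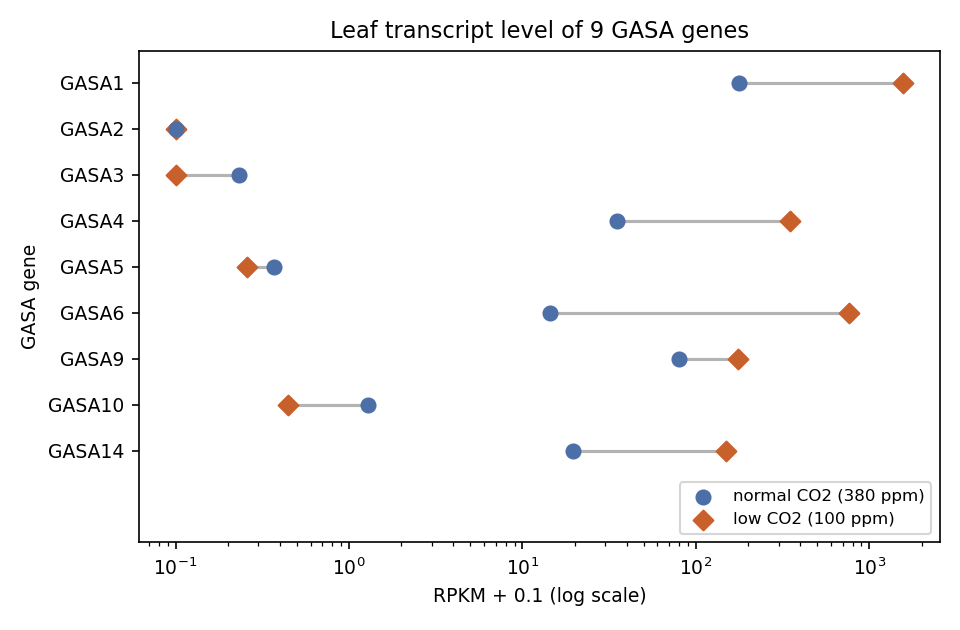
RPKM + 0.1 on a log scale for each of the 9 GASA genes under normal CO2 (circles) and low CO2 (diamonds), 1 value per CO2 level with no replicate error. GASA1, GASA4, GASA6, GASA9 and GASA14 lie to the right under low CO2, while the other 4 genes stay at or below 1.18 RPKM.

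GASA6 had the widest difference of the family. This gene promotes germination and cell elongation and is known to respond to gibberellin, abscisic acid and glucose. GASA6 (AT1G74670) stood at 14.3 RPKM under normal CO2, from 110 reads, and at 760 RPKM under low CO2, from 5040 reads. It was thus the fifth member in level under normal CO2 and the second under low CO2. The ratio was 53.2 (44.1 to 64.9), and its log2 difference of 5.64 on the log2(RPKM + 1) scale ranked 4 among the 16563 genes whose mean reached 1 RPKM.

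GASA1, which the reference annotation describes as regulated in opposite ways by brassinosteroid and gibberellin and possibly tied to cell elongation, was the most abundant member in both columns. GASA1 (AT1G75750) was at 178 RPKM under normal CO2, from 1316 reads, and at 1569 RPKM under low CO2, from 9992 reads. Its rank by RPKM among all 26402 genes was 1030 under normal CO2 and 85 under low CO2. The ratio was 8.82 (8.33 to 9.35), with a narrow interval because of the number of reads.

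GASA4, which promotes gibberellin responses and has redox activity, was higher by a similar factor. GASA4 (AT5G15230) was at 34.7 RPKM from 220 reads under normal CO2 and at 347 RPKM from 1889 reads under low CO2, a ratio of 9.98 (8.67 to 11.5). GASA14, which acts in gibberellin-induced growth under DELLA control and lowers the accumulation of reactive oxygen species, came next. GASA14 (AT5G14920) was at 19.5 RPKM from 332 reads under normal CO2 and at 149 RPKM from 2182 reads under low CO2, a ratio of 7.64 (6.80 to 8.60). The counting intervals of GASA14 and GASA1 overlapped, as did those of GASA1 and GASA4, while those of GASA14 and GASA4 did not.

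GASA9 differed least among the abundant members. GASA9 (AT1G22690), which the reference lists only as a gibberellin-regulated family protein, was at 80.1 RPKM from 727 reads under normal CO2 and at 174 RPKM from 1359 reads under low CO2. Its ratio of 2.17 (1.98 to 2.38) had an interval that reached below 2-fold and did not overlap that of GASA14. It was the second most abundant member under normal CO2 and the fourth under low CO2.

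**Figure D2:**
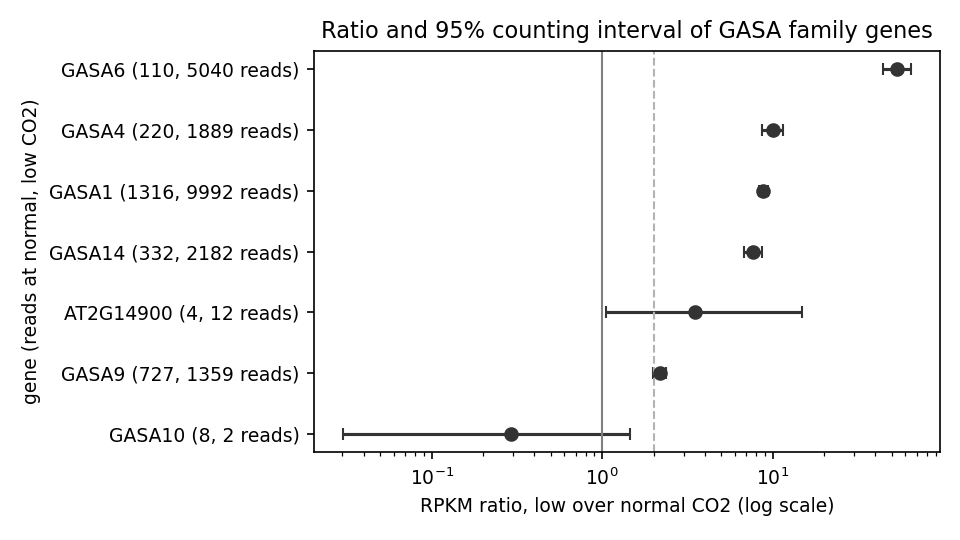
Ratio of RPKM at low over normal CO2 on a log scale for GASA family genes with at least 10 reads over both columns, with 95% counting intervals as bars, a solid line at 1 and a dashed line at 2. GASA6 lies apart at 53.2, GASA4, GASA1 and GASA14 lie between 7.64 and 9.98, GASA9 lies at 2.17, and GASA10 and AT2G14900 have wide intervals from few reads.

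The 4 low members gave no usable ratio or a very wide one. GASA10 (AT5G59845) was at 1.18 RPKM from 8 reads under normal CO2 and at 0.342 RPKM from 2 reads under low CO2, and its ratio of 0.290 (0.0300 to 1.46) had an interval that included 1. GASA5 (AT3G02885), which acts in the thermotolerance of seedlings, had 2 reads under normal CO2 and 1 under low CO2, or 0.270 and 0.157 RPKM. GASA3 (AT4G09600) had 1 read under normal CO2 and was listed at 0 under low CO2, and GASA2 (AT4G09610) was listed at 0 in both columns. Transcripts of GASA2 and GASA3 are known from siliques and seeds. For GASA2 a floor of 3 reads corresponds to 0.397 RPKM under normal CO2 and 0.461 RPKM under low CO2, and for GASA3 to the same 0.461 RPKM under low CO2. The single read of GASA3 under normal CO2, 0.132 RPKM, had a 95% Poisson counting interval that reached 0.738 RPKM, so levels of that size were not resolved at this depth. GASA2 and GASA3 are next to each other in the reference annotation and in the table.

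Marker genes of seeds, flowers and other tissues were set beside these values. Of 6 seed markers 5 were listed at 0 under normal CO2 and 4 under low CO2, and their levels summed to 0.0722 and 0.599 RPKM. The seed storage gene SESA1 made up most of the second value, with 6 reads under low CO2 and none under normal CO2. The 6 flower markers summed to 2.42 RPKM under normal CO2 and 1.11 under low CO2, most of it from AG (1.92 and 0.786 RPKM), with LFY listed at 0 in both columns. The 5 shoot meristem markers summed to 0.0329 and 0.0765 RPKM, and STM, CLV3, WUS and CUC2 were listed at 0 in both. The 4 guard cell markers summed to 95.2 and 116 RPKM, the 4 trichome markers to 6.18 and 6.71 RPKM, and the 5 root markers to 12.7 and 12.3 RPKM, nearly all from SCR, which leaves also express. Of the 5 mesophyll markers 3 were at least 2-fold higher under low CO2 and 2 lay within 2-fold. The highest ratio was that of CA1, at 264 RPKM under normal CO2 and 2272 under low CO2, a ratio of 8.60 (8.39 to 8.82). RBCS1A had a ratio of 2.39 (2.37 to 2.40) and LHCB1.3 of 2.12 (2.11 to 2.14). Those within 2-fold were RCA, at 6572 RPKM under normal CO2 and 7210 under low CO2, and PSBO1, at 2734 and 4766 RPKM. The part of cell composition in the GASA values was not tested.

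Taken as a family, the 9 genes summed to 328 RPKM under normal CO2 and 2999 RPKM under low CO2, a ratio of 9.14. In reads, they took 0.0107% of the depth under normal CO2 and 0.0935% under low CO2, a ratio of 8.75 (8.41 to 9.12). GASA1 made up 54.2% of the summed RPKM under normal CO2 and 52.3% under low CO2. GASA6 went from 4.35% of the sum to 25.3%, and GASA9 from 24.4% to 5.80%. GASA4 held 10.6% and 11.6%, and GASA14 held 5.95% and 4.97%. GASA1 and GASA6 together accounted for most of the added level, with 52.1% and 27.9% of the difference between the sums. With both left out the sum of the other 7 genes was 136 RPKM under normal CO2 and 670 under low CO2, a ratio of 4.93.

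**Figure D3:**
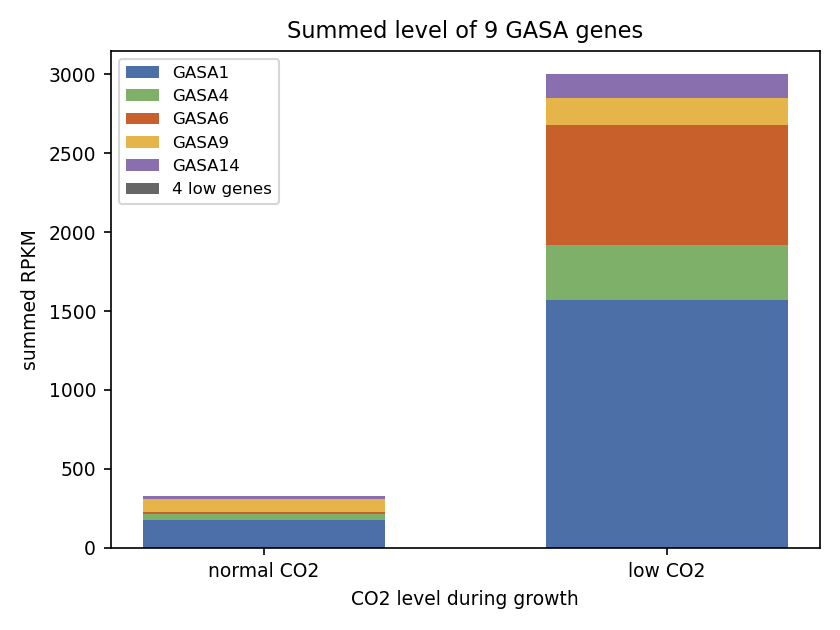
Summed RPKM of the 9 GASA genes at each CO2 level, on a linear axis from 0, with each segment the RPKM of a gene and no replicate error. The sum is 328 under normal CO2 and 2999 under low CO2, GASA1 is the tallest segment in both bars, and the GASA6 segment is seen mainly under low CO2.

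The order of the levels changed between the columns. At normal CO2 it ran GASA1, GASA9, GASA4, GASA14 and GASA6, and under low CO2 GASA1, GASA6, GASA4, GASA9 and GASA14. The 95% Poisson counting intervals of neighbours in these orders did not overlap. The closest neighbours under normal CO2 were GASA14 (17.5 to 21.7 RPKM) and GASA6 (11.7 to 17.2 RPKM), and under low CO2 GASA9 (165 to 183 RPKM) and GASA14 (143 to 155 RPKM). GASA10 and GASA5, with intervals of 0.509 to 2.32 and 0.0327 to 0.976 RPKM under normal CO2, could not be ordered.

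Levels between genes rest on the gene model behind each value. In the ratio of a gene the length cancels, so the ratio is unchanged only where both models count the same reads. For GASA1, GASA4 and GASA14 the reference holds coding models of different length, and the table gave whole reads with the shorter of them, of 294, 252 and 672 bases with the stop codon. Levels under the other models were worked out with these reads held fixed and only the length changed. Reads that only the other model would count are not known. With the same reads on the longer model of 321 bases GASA4 would stand at 27.2 and 271 RPKM. With the same reads on the longer model of 828 bases GASA14 would stand at 15.8 RPKM under normal CO2 and at 121 RPKM under low CO2. The first value is close to the 14.3 RPKM of GASA6. The models of GASA1 differ by a single codon, and with the same reads its level would be 176 and 1553 RPKM. GASA5 also has models of different length, and there the longer one, of 294 bases, gave whole reads, while the shorter has 273 bases.

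Of the 9 members, 5 passed the filter of a mean of at least 1 RPKM, and each of these passed it in either column alone. All 5 were at least 2-fold higher under low CO2 on the log2(RPKM + 1) scale, beside 6.07% of the 16563 genes counted. None was at least 2-fold lower, beside 11.1% of the genes counted, and no replicated test stands behind that count. At least 4-fold higher were 4 members, all but GASA9, beside 1.47% of genes, and at least 8-fold higher were GASA1, GASA4 and GASA6, beside 0.483%. The median log2 difference of the 5 was 3.13, and that of all genes counted was -0.06. The family was chosen with these differences known, so nothing is read from these shares.

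**Figure D4:**
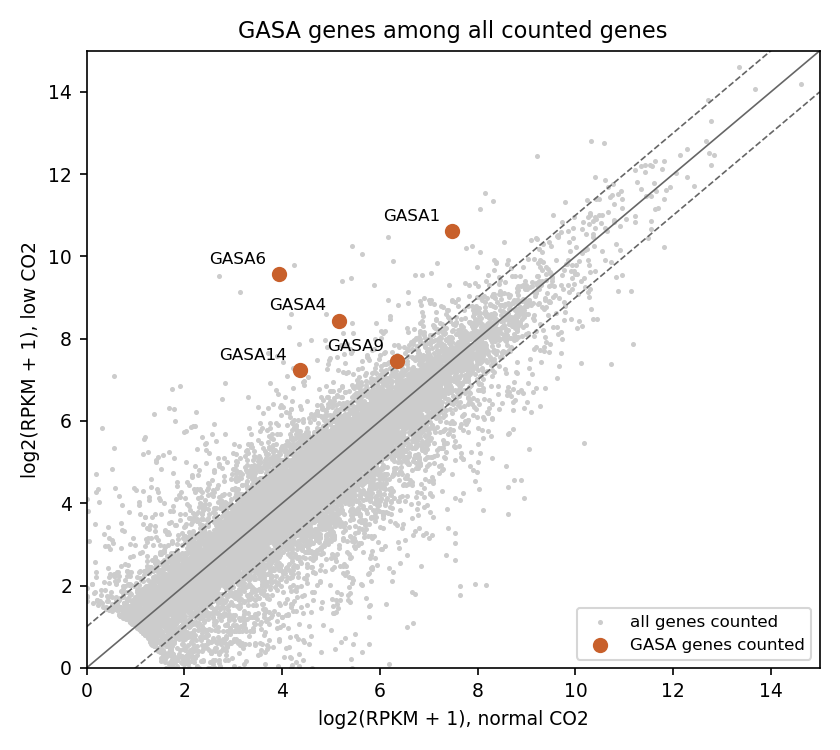
log2(RPKM + 1) under normal CO2 (x axis) and low CO2 (y axis) for the 16563 genes whose mean reached 1 RPKM, in grey, and the 5 GASA genes among them, with a solid line of equal level and dashed lines at 2-fold. All 5 GASA genes lie above the upper dashed line, GASA9 just above it and GASA6 farthest from it.

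The reference annotation names 16 genes of the family, of which 15 were in the table, 6 of them beyond the 9 members. These 6 were low throughout. AT2G14900 was at 0.485 RPKM from 4 reads under normal CO2 and at 1.69 RPKM from 12 reads under low CO2, a ratio of 3.49 with an interval of 1.06 to 14.8. On the log2(RPKM + 1) scale it differed by 0.86, which is within 2-fold, and it reached a mean of 1 RPKM only through its low CO2 value. AT3G10185 was at 0.127 and 0.296 RPKM, and its reads were not recovered. The other 4 (AT1G10588, AT2G18420, AT2G30810 and AT2G39540) were listed at 0 in both columns.

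The genes on either side of the members showed no common direction. Of the 10 nearest listed neighbours of the 5 abundant members 9 were counted, of which 1 was at least 2-fold higher under low CO2, 2 at least 2-fold lower and 6 within 2-fold. Among all genes counted 6.07% were higher by that much and 11.1% lower. Next to GASA6, the mini zinc finger gene MIF1 (AT1G74660) was at 6.68 and 2.84 RPKM, with a ratio of 0.425 (0.237 to 0.730) from 52 and 19 reads. The exostosin family gene AT1G74680 on the other side was at 21.4 and 18.5 RPKM, with a ratio of 0.864 (0.774 to 0.966). Next to GASA4, the ribosomal protein L27 family gene AT5G15220 was the higher neighbour, at 14.0 and 34.3 RPKM and a ratio of 2.46 (2.04 to 2.98). Next to GASA14, SAG101 (AT5G14930), a gene of leaf senescence and defence, was at 38.6 and 17.0 RPKM, with a ratio of 0.441 (0.400 to 0.484), and AT5G14910 was at 119 and 233 RPKM. The neighbours of GASA1, AT1G75730 and AT1G75760, had ratios of 1.23 and 1.49. The ratios of the 9 counted neighbours ran from 0.425 to 2.46, below those of GASA6, GASA4, GASA1 and GASA14. The ratio of GASA9, 2.17, lay within that range.

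The genes most like GASA6 were sought by the distance between log2(RPKM + 1) values over both columns, which is a likeness over 2 values only. The nearest was AT4G21870, of the HSP20-like chaperone superfamily, at 17.9 and 887 RPKM, with a distance of 0.38. AT5G62360, in the superfamily of invertase and pectin methylesterase inhibitors, followed at 7.81 and 560 RPKM and a distance of 0.91. AT3G15630 came next, at 17.0 and 387 RPKM and a distance of 1.00.

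Genes of gibberellin synthesis went both ways. Of 14 genes listed for gibberellin synthesis, 13 were in the table and 5 were counted, while KAO1 was not analysed here. Of these 5, 1 was at least 2-fold higher under low CO2, beside 6.07% of all genes counted. Another 1 was lower by that much, beside 11.1%, and 3 were within 2-fold. The median log2 difference was -0.53 beside -0.06 for all genes counted. The higher gene was GA3OX1, which makes active gibberellin in the last step, at 9.26 RPKM from 253 reads under normal CO2 and at 42.7 RPKM from 1004 reads under low CO2, a ratio of 4.61 (4.01 to 5.31). The lower gene was GA20OX1, of the steps just before, at 2.26 RPKM from 65 reads and 0.525 RPKM from 13 reads, a ratio of 0.232 (0.117 to 0.426). GA3, the ent-kaurene oxidase of the early pathway, was at 75.7 and 47.0 RPKM, with a ratio of 0.621 (0.584 to 0.661).

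Among genes that inactivate gibberellin, both gibberellin 2-oxidase genes that were counted were lower under low CO2. Of 11 genes 3 were counted, with a median of -1.10, and 2 of the 3 were at least 2-fold lower, beside 11.1% of all genes counted. The gibberellin 2-oxidase gene GA2OX6 was at 16.0 RPKM from 401 reads under normal CO2 and 4.35 RPKM from 94 reads under low CO2, a ratio of 0.272 (0.215 to 0.342). GA2OX2 was at 8.73 and 3.53 RPKM, with a ratio of 0.404 (0.309 to 0.525). GAMT2, a gibberellin methyltransferase gene, lay within 2-fold on the log2(RPKM + 1) scale at 1.46 and 0.708 RPKM.

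Among genes of gibberellin perception and signalling 15 of 16 were counted. Of these 15, 1 was at least 2-fold higher under low CO2, beside 6.07% of all genes counted, and 3 lower by that much, beside 11.1%. The other 11 lay within 2-fold. The list median was -0.35. The receptor gene GID1B was at 49.1 RPKM under normal CO2 and 13.9 RPKM under low CO2, a ratio of 0.282 (0.249 to 0.319). The receptor genes GID1A (34.0 and 43.3 RPKM) and GID1C (24.5 and 17.1 RPKM) lay within 2-fold and were chosen after seeing their values. All 5 DELLA repressor genes were also chosen in that way. GAI and RGA1 (RGA) had ratios of 1.13 (1.03 to 1.23) and 0.990 (0.934 to 1.05), and RGL1 had a ratio of 0.916 (0.821 to 1.02). The other DELLA genes were at lower levels with ratios under 1. RGL3 was at 1.95 RPKM from 78 reads and 0.699 RPKM from 24 reads, a ratio of 0.357 (0.216 to 0.571), though within 2-fold on the log2(RPKM + 1) scale. RGL2, at 0.863 RPKM from 36 reads and 0.445 RPKM from 16 reads, was below the filter and had a ratio of 0.516 (0.268 to 0.955). XERICO, a RING finger gene that also acts on abscisic acid, was at 126 and 44.6 RPKM, with a ratio of 0.355 (0.319 to 0.394). The other lower gene, chosen after seeing its values, was SCL3, a GRAS family gene that acts against the DELLA proteins, at 22.4 and 8.22 RPKM. SPY, a sugar-transferring enzyme that modifies DELLA proteins, was the higher gene, at 24.2 and 65.6 RPKM and a ratio of 2.72 (2.55 to 2.90).

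**Figure D5:**
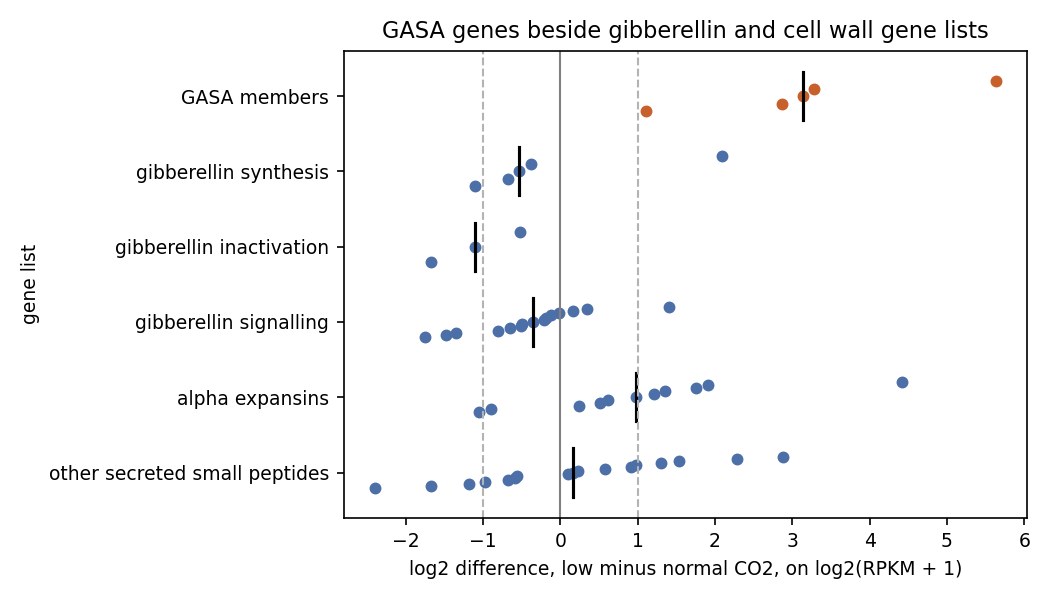
Difference between low and normal CO2 on the log2(RPKM + 1) scale for counted genes of each list, with a point per gene, a bar at the list median, a solid line at 0 and dashed lines at 2-fold. The 5 GASA genes lie between 1.11 and 5.64, while the medians of the gibberellin lists lie between -1.10 and -0.35 and EXPA1 stands apart among the expansins at 4.42.

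Expansins, proteins that loosen the cell wall, were set beside the GASA genes because EXPA1 is known to act with GASA6 in germinating seeds. Of 19 alpha expansin genes 11 were counted. At least 2-fold higher under low CO2 were 5, beside 6.07% of all genes counted, and 1 was lower by that much, beside 11.1%. The other 5 expansin genes lay within 2-fold. The median log2 difference was 0.97. EXPA1 was at 49.0 RPKM from 934 reads under normal CO2 and at 1067 RPKM from 17514 reads under low CO2, a ratio of 21.8 (20.4 to 23.3). EXPA8 was at 4.56 and 19.8 RPKM, with a ratio of 4.34 (3.42 to 5.56), and EXPA5 at 13.0 and 46.3 RPKM, with a ratio of 3.56 (3.09 to 4.12). EXPA10, EXPA11 and the lower gene EXPA4 were chosen after seeing their values and had ratios of 2.76, 2.98 and 0.471.

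Other small secreted peptides, many of them rich in cysteine like the GASA proteins, went both ways. Of 24 genes of lipid transfer proteins, defensins, thionins, EPF and RALF peptides 17 were counted. At least 2-fold higher under low CO2 were 4, beside 6.07% of all genes counted, and 3 were lower by that much, beside 11.1%. The other 10 peptide genes lay within 2-fold. The median log2 difference was 0.16. RALF1, a peptide that restrains cell expansion, was at 1.09 RPKM from 10 reads and 14.5 RPKM from 114 reads, a ratio of 13.2 (6.95 to 28.4). The defensin gene PDF2.2 was at 72.5 and 358 RPKM, with a ratio of 4.93 (4.44 to 5.50). The lipid transfer gene LTP6 had 43 reads under normal CO2 and 1 under low CO2, a ratio of 0.0270 with an interval from 0.000669 to 0.159. No difference between any of these lists and the GASA genes could be tested, as each column holds a single value per gene.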

How the data were processed

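RNA sequencing was done on 6 whole leaf samples, 3 per CO2 level. A column kit gave the total RNA and the Illumina TruSeq RNA guide was followed for libraries, per the labels' protocols. Per the submitters' processing notes FastQC, TopHat and Cufflinks were used. Not given in the sources used here are versions, genome build, counting, strand and pooling. The deposited values are RPKM made by the authors, in 1 column per CO2 level, treated as the authors' value for the group with no SD or n. A column may pool 3 samples or be 1 library. Nothing in the labels says whether samples came from separate plants.

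Reads were recovered as RPKM × depth × coding length, taking coding lengths without the stop codon (3 bases) from the reference annotation (TAIR10.1). The depth of each column was fitted on genes with 1 coding length, so that their values fell near whole reads. The reads of a gene were then accepted where both columns were whole within 0.0001 reads. Of 21010 genes above 0, 20247 (96.4%) gave whole reads in both columns. At these depths 1 read on 1 kb equals 0.0393 RPKM in the normal CO2 column and 0.0457 in the low CO2 column. The steps were tested on simulated data in which each gene had 1 coding length. The choice among several lengths, made for GASA1, GASA4, GASA5 and GASA14, was not covered by it.

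Of the listed loci 25797 matched the reference, which was used for names, gene descriptions, family membership, coding lengths and neighbours. No coordinates or sequences are given, and the planned count of promoter motifs was not made, because the build is not stated. The names GASA9 and GASA10 are those under which the members were chosen. Differences are log2((low + 1)/(normal + 1)) for the genes whose mean reached 1 RPKM, and 2-fold was the size called. This scale understates the difference of low genes. A planned limma fit needs replicate columns and was not run. Floors are 3 reads.

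The members and gene lists were chosen with earlier results of these data known. Named genes are all family genes, the 3 list members with the largest difference in either direction, the nearest listed neighbours of members and the 3 genes nearest to GASA6. Genes named beyond that rule are said to be so, apart from markers. Without known strand, reads of overlapping genes cannot be told apart. Alternatives were other pseudocounts, filters and scalings, computed with Python 3.11.15, numpy 2.4.6, pandas 2.3.3 and scipy 1.17.1.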

Additional observations from a re-analysis of the deposited data

How the results depend on the processing

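The count of 5 members at least 2-fold higher and 0 lower was the same with a pseudocount of 0.1 or 5 RPKM, after median scaling or quantile normalization, without a filter on low values and with a mean of at least 5 RPKM. The share of all genes counted that was at least 2-fold higher did change, from 3.88% to 7.27%. The share lower by that much ran from 7.09% to 12.7%. Over these 6 settings the log2 difference ran from 5.31 to 5.72 for GASA6, 3.15 to 3.34 for GASA4, 3.03 to 3.19 for GASA1, 2.65 to 2.95 for GASA14 and 1.07 to 1.17 for GASA9. The ratio of summed RPKM, 9.14, was 9.50 after median scaling and 8.94 after quantile normalization. It was 7.14 without GASA6, and, in alternatives chosen after seeing the data, 9.52 without GASA1, 11.4 without GASA9 and 8.75 from reads summed in place of RPKM. No paired analysis was possible because the table holds 1 column per CO2 level and none that carries a replicate number, and for the same reason no replicate could be left out. Depth limits GASA2, GASA3, GASA5 and GASA10, which had at most 8 reads in a column.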
